A study of Rattus norvegicus with 8 samples.

Results

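The genes described here are 9 transcription factors through which the circadian clock acts on other genes, namely Dbp, Tef, Hlf, Nfil3, Bhlhe40, Bhlhe41, Ciart, Rora and Rorb. They were taken by gene symbol from the deposited comparison, and not by a limit on their values. The list was drawn up with earlier results of these data known. All 9 are present among the 13272 symbols of the comparison. Together they have 10 transcript rows of 16266, since Dbp has 2 rows and each of the other 8 genes has 1. RNAseq had been carried out on whole hippocampi of adult rats that were all adrenalectomized (ADX), so that both groups lacked their own adrenal corticosterone. Of the 8 rats, 4 received vehicle, 0.45% saline, and 4 received corticosterone (CORT) as a cyclodextrin complex at 0.75 mg/mL, each infused over 30 min from zeitgeber time (ZT) 2, early in the resting phase. The hippocampi were taken 2 h after the start of the infusion. The labels give the strain as Sprague-Dawley and the age as 3 to 4 months, whereas the study's methods describe male Lister hooded rats that were younger. Per the methods, the rats drank a low dose of corticosterone in saline while they recovered from surgery, and plain saline in the last hours before the infusion.

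The values are FPKM, fragments per kilobase of transcript scaled to the size of the library, and the deposited table holds 1 value for each group rather than 1 for each rat. No spread between rats can therefore be given, no test between the groups was run, and every difference given is that between 2 group values, without a replicate check. The study's methods give an approximate read total for a sequencing lane shared by several samples, and the depth of each library is not given in the sources used here. The median FPKM over all rows was 9.22 with vehicle and 9.38 with CORT. Of 13 genes listed as targets of the glucocorticoid receptor, 13 of 16 rows were at least 1.5-fold higher with CORT, and 632 of all 15808 rows with at least 1 FPKM in a group, 4.00%, were. This list was drawn up with earlier results of these data known, and the study names several of its genes as regulated by CORT. Its count is therefore a description and no independent check of the infusion. Of 8 markers of hippocampal neurons 5 had a row, with a median log2 ratio of CORT over vehicle of 0.10. Neurod6 and Wfs1, the highest of them, were at 128 and 106 FPKM with vehicle and at 119 and 114 FPKM with CORT. Prox1, which marks dentate granule cells, had a log2 ratio of -0.28, and 1 of the 5 rows, Zbtb20, was past 1.5-fold, at 1.55 and 2.72 FPKM. Markers of the adjoining thalamus and habenula were lower with CORT by at least 1.5-fold in 8 of 11 rows, against 4.45% of all rows. Their summed level was 64.5 FPKM (vehicle) and 38.7 FPKM (CORT). Among the lower rows, those of Chrna3, Gpr151 and Synpo2 reached 1 FPKM only with vehicle, so the filter fixed their direction. In whole tissue, fewer cells of a type and less RNA per cell cannot be told apart.

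The clock turns in a loop in which CLOCK and BMAL1 bind E-boxes and switch on their own repressors, and the factors described here carry that rhythm outwards. Dbp, Tef and Hlf encode the PAR bZIP activators, which bind D-boxes, and Nfil3 encodes a bZIP repressor of the same sites. Bhlhe40 and Bhlhe41 (DEC1 and DEC2) and Ciart (CHRONO) encode repressors that act on CLOCK and BMAL1 at E-boxes, and Rora and Rorb encode nuclear receptors that activate genes with ROR elements, Arntl (BMAL1) among them.

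E-boxes are known to tie several of these genes to the clock, so the sequences of their promoters are shown before the values. RefSeq promoters of the GRCr8 assembly, from 250 bases before to 50 bases after a transcript start, were at hand for 8 of the 9 genes, and Hlf was not among them. In 4 of the 8, Tef, Ciart, Rora and Bhlhe41, the start used lies inside the annotated gene, by 9647, 1532, 633545 and 60 bases. The windows of Tef, Ciart and Rora therefore do not lie at the outer end of the gene, whereas that of Bhlhe41 spans it. The E-box CACGTG was present in 4 of the 8 windows, against 6.42% of all 33469 promoters, and a match is a description and not a binding site. G and C made up 48.7% (Nfil3) to 74.7% (Rora) of the bases of the 8 windows. The median over all promoters was 51.7%, and the shares of promoters with a motif were not matched for this. Ciart held 3 E-boxes, which begin 93, 35 and 21 bases before the start used, and 0.0568% of all promoters hold 3 or more. Tef held 1 E-box, Bhlhe41 1 and Bhlhe40 1, beginning 198, 48 and 220 bases before the start. Bhlhe40 also held the glucocorticoid response element half-site AGAACA, 128 bases before its start, which 20.7% of all promoters hold and none of the other 7 windows did. The E-box variant CACGTT (4.83% of all promoters), the D-box TTATGTAA (0.893%) and the ROR element core TAGGTCA (2.63%) were in none of the 8 windows. All 5 motifs were searched on both strands, and no 2 matches overlapped. The Ciart window, chr2:186112197-186112496 on the minus strand, and the Bhlhe40 window, chr4:143174200-143174499 on the plus strand, are shown as the richest in matches, and that of Nfil3, chr17:12432126-12432425 on the plus strand, because Nfil3 differed most between the groups among members above 1 FPKM. Capitals mark the E-boxes and the half-site, and Nfil3 has none. The E-boxes of Tef, chr7:115206619-115206644 on the plus strand, and Bhlhe41, chr4:180569388-180569413 on the minus strand, are shown with 10 bases on either side.
Ciart: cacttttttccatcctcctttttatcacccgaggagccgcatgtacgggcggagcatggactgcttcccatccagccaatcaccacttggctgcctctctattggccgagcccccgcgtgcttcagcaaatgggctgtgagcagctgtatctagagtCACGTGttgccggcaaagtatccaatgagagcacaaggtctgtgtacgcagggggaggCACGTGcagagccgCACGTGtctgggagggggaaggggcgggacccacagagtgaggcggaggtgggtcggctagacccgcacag
Bhlhe40: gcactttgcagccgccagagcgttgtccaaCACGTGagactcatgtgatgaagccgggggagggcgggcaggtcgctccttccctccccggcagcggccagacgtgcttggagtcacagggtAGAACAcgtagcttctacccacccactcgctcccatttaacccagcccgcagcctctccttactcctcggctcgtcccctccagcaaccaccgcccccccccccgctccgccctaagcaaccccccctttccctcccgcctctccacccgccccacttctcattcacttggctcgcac
Nfil3: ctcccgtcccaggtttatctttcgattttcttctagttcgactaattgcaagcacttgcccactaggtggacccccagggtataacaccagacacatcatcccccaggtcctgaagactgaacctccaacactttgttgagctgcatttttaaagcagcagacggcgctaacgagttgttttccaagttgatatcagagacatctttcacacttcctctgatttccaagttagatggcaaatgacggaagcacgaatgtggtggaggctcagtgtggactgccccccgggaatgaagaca
Tef: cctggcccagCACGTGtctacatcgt
Bhlhe41: gtacgttccgCACGTGagctgggtgc

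**Figure D1:**
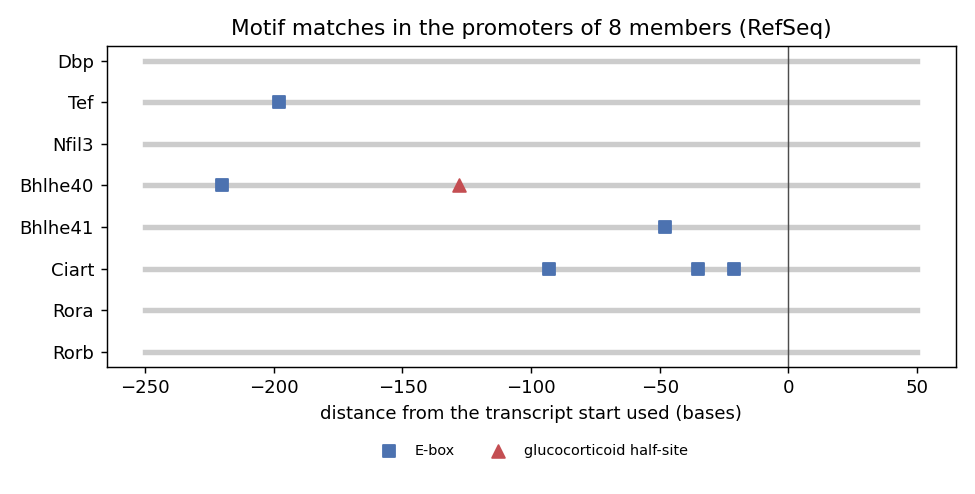
Position of each motif match in the promoters of 8 members, in bases from the transcript start used (x axis), with squares for E-boxes and a triangle for the glucocorticoid half-site. Ciart holds 3 E-boxes, Tef, Bhlhe41 and Bhlhe40 hold 1 each, and Dbp, Nfil3, Rora and Rorb hold no match.

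The level of these genes in the hippocampus spanned more than 2 orders of magnitude on the FPKM scale, which is per length and so allows genes to be ordered. With vehicle, Tef was the highest at 91.5 FPKM, above 93.7% of all rows. Dbp followed at 65.7 FPKM with its rows summed, then Bhlhe40 at 23.2, Hlf at 13.9 and Bhlhe41 at 11.1 FPKM. Nfil3 and Ciart could not be told apart at 5.46 FPKM each. Rorb was at 2.06 FPKM and Rora at 0.559 FPKM. With CORT the order of the genes was the same, and Nfil3 now stood above Ciart, at 8.33 against 5.87 FPKM. Whether any neighbours in this order differ beyond the spread between rats cannot be said from group values.

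**Figure D2:**
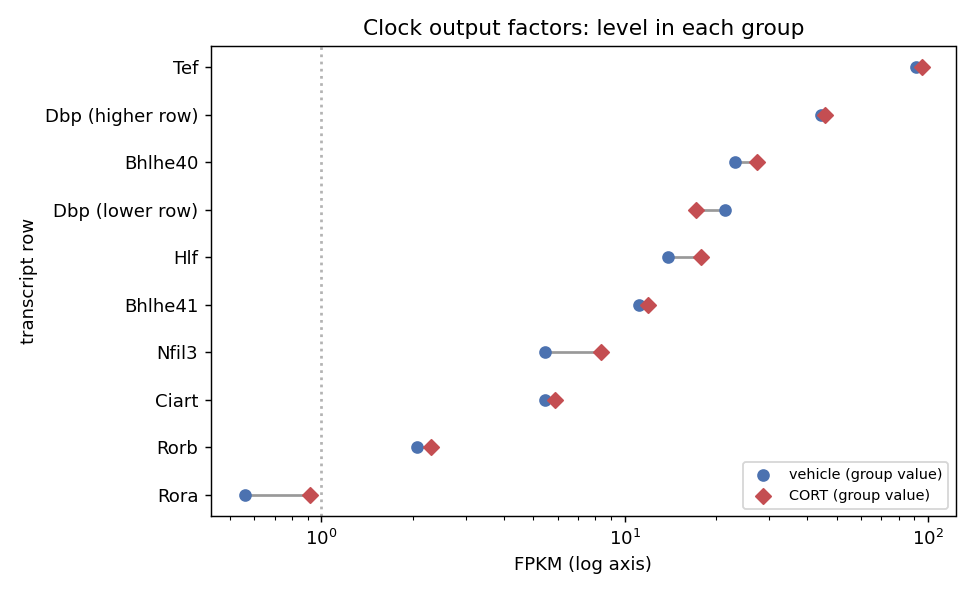
FPKM of each of the 10 transcript rows (x axis, log scale) in the vehicle group (circles) and the CORT group (diamonds), 1 group value each, without error since no value per rat was used; the dotted line is 1 FPKM. The symbols nearly coincide for Tef and the higher Dbp row, and lie farthest apart for Nfil3 and Rora.

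Of the 10 rows, 9 had at least 1 FPKM in a group, and Rora did not. Of these 9, 1 was at least 1.5-fold higher with CORT, Nfil3, which is 11.1% against a background of 4.00% of all 15808 rows. None of the 9 was at least 1.5-fold lower, against 4.45% of all rows. With a lower limit, 2 rows were at least 25% higher with CORT, Nfil3 and Hlf, against 9.17% of all rows, and 0 were at least 20% lower, against 10.1%. The lower Dbp row, at 0.803 times its vehicle value, was just short of 20% lower. With so few members, 1 or 2 rows past a fold are a description of these genes and do not set the list apart. The median log2 ratio of the 9 rows, CORT over vehicle, was 0.11, beside 0.02 for all rows. The ratio was above 0 for 8 of the 9 rows, the lower Dbp row being the exception, and for 55.3% of all rows.

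As a yardstick in place of a replicate error, each row was set beside the 500 rows nearest to it in mean FPKM. The middle 95% of the log2 ratios of such rows describes how far transcripts of like level lay from a ratio of 1, and it is no test, since it was taken over transcripts and not over rats. Of the 10 rows, 9 lay inside that range and 1, Nfil3, lay outside. A middle 95% leaves some rows outside by construction, so 1 of 10 does not set the list apart.

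**Figure D3:**
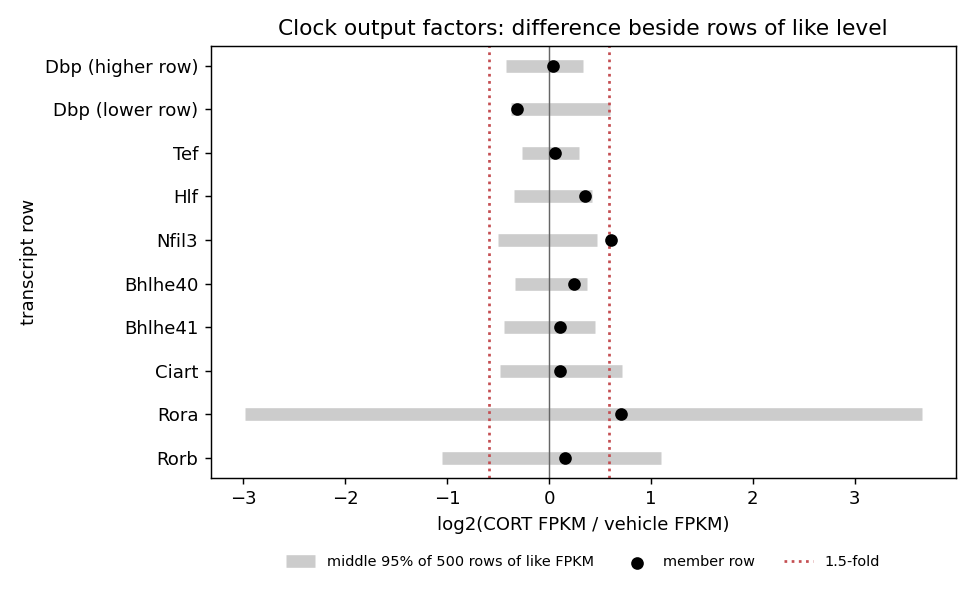
log2 ratio of CORT over vehicle FPKM (x axis) for each of the 10 transcript rows (points), with grey bars for the middle 95% of the 500 rows of like FPKM and dotted lines at 1.5-fold in either direction. Nfil3, at 0.61, is the only row beyond its bar, and the bar of Rora, below 1 FPKM, runs from -2.99 to 3.66.

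Nfil3, the repressor at D-boxes, had the largest ratio among the member rows with at least 1 FPKM, and is taken first for that reason. Its 1 transcript, ENSRNOT00000015525.6, on chromosome 17 of rn6 between 12261101 and 12276315, had a vehicle value of 5.46 FPKM and a CORT value of 8.33 FPKM. That is 1.53-fold, a log2 ratio of 0.61, just past the 1.5-fold limit of 0.58. Rows of like level, from 6.48 to 7.34 FPKM in the mean of both groups, had log2 ratios from -0.50 to 0.47 in their middle 95%, and 2.2% of them differed by as much in either direction. Nfil3 was below the median level of all rows, higher than 36.5% of them with vehicle. Beside Nfil3, 7 of 12 rows of immediate early genes were at least 1.5-fold higher with CORT and none that much lower, and their part in the value of Nfil3 was not tested. The promoter of Nfil3 printed above holds neither an E-box nor the half-site searched, which says only that these letters are not in that window.

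The activators at the same sites differed less. For Tef, thyrotroph embryonic factor, on chromosome 7 of rn6 between 123043502 and 123058604, the CORT value of 95.2 FPKM was 1.04 times the vehicle value of 91.5 FPKM, a log2 ratio of 0.06. Of the rows of like level, 66.4% differed by at least as much. Hlf, hepatic leukemia factor, on chromosome 10 between 77840567 and 77918191, had values of 13.9 FPKM (vehicle) and 17.8 FPKM (CORT). Its log2 ratio of 0.35, 1.28-fold, lay inside the range of -0.34 to 0.42 of rows of like level, of which 6.4% differed as much. Hlf was thus second to Nfil3 among the members above 1 FPKM, but short of the limit.

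Dbp, the D-box binding protein whose rhythm is among the strongest of the clock outputs, had its 2 rows on the same locus, chromosome 1 of rn6 between 101687854 and 101692846. The higher row, ENSRNOT00000091597.1, had 44.3 FPKM in the vehicle group and 45.7 in the CORT group, a log2 ratio of 0.04. The lower row, ENSRNOT00000028546.5, had 21.3 FPKM in the vehicle group and 17.1 in the CORT group, a log2 ratio of -0.32, the only ratio below 0 among the 10 rows. Rows of like level to the lower row had log2 ratios from -0.38 to 0.59, and 8.6% of them differed as much in either direction. The lower row made up 32.5% of the FPKM of Dbp with vehicle and 27.3% with CORT. The split of reads between transcripts of 1 locus is an estimate, and with both rows summed Dbp went from 65.7 to 62.8 FPKM, a log2 ratio of -0.06. The sign of the ratio for Dbp therefore depended on the row, and that of the sum was below 0.

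Set against each other, the 3 activators summed to 171 FPKM in the vehicle group and 176 in the CORT group, a log2 ratio of 0.04, beside 0.61 for the repressor. Nfil3 amounted to 3.19 FPKM per 100 FPKM of Dbp, Tef and Hlf with vehicle and to 4.74 with CORT. The activators were thus far above the repressor in transcript level in both groups. Protein levels were not measured here.

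Among the repressors at E-boxes, Bhlhe40, on chromosome 4 of rn6 between 140703618 and 140709319, had a vehicle value of 23.2 and a CORT value of 27.4 FPKM. It was thus 1.18-fold higher with CORT, inside the range of -0.33 to 0.38 on the log2 scale of rows of like level, of which 13.6% differed as much. Its relative Bhlhe41, on the same chromosome between 180232381 and 180234804, stood at 11.1 FPKM (vehicle) and 11.95 FPKM (CORT), a log2 ratio of 0.10, and 53% of rows of like level differed as much. Both together summed to 34.3 FPKM (vehicle) and 39.3 FPKM (CORT). Ciart, the gene with 3 E-boxes in its promoter, on chromosome 2 between 197987704 and 197991574, stood at 5.46 FPKM (vehicle) and 5.87 FPKM (CORT), a log2 ratio of 0.11, which 57.4% of rows of like level reached. Among the 4 genes with E-boxes, Tef, Ciart, Bhlhe40 and Bhlhe41, none was 25% higher or 20% lower with CORT, whereas Nfil3, which has no E-box in its window, was past 1.5-fold. Among the other genes without an E-box in the window, the rows of Dbp, with log2 ratios of 0.04 and -0.32, and that of Rorb, with 0.16, were not past these limits either, and Rora was under 1 FPKM. Whether the motif bears on the ratio was not tested.

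The nuclear receptors were the lowest of the 9. Rorb, on chromosome 1 of rn6 between 234252756 and 234435839, had values of 2.06 FPKM (vehicle) and 2.30 FPKM (CORT), a log2 ratio of 0.16. Rows at that level had log2 ratios from -1.05 to 1.09, so a difference of the size seen for Nfil3 would not have stood out there. Rora, on chromosome 8 between 75516903 and 75607212, had 0.559 FPKM in the vehicle group and 0.914 in the CORT group, both under 1 FPKM. Its log2 ratio of 0.71 was the largest of the 10 rows, but it lay well inside the range of -2.99 to 3.66 of rows of like level, of which 54.8% differed as much. With 1 FPKM added to both values it was 0.30. The locus of the Rora row is also short beside the gene. It spans 90309 bases of rn6, whereas the RefSeq gene spans 733021 bases in GRCr8, so the locus is 12.3% as long. For the other 8 genes that share lay between 54.9% and 135%. These are spans on the chromosome with introns included, and the share of the exons in each row was not compared. Both receptors are known for high expression in the thalamus, whose markers were lower with CORT in most rows, as given above. Rorb is also known for expression in the pineal gland. Of 8 pineal markers 4 had a row, all at least 1.5-fold lower with CORT, against 4.45% of all rows. The summed level of these rows was 17.0 FPKM in the vehicle group and 2.37 in the CORT group. Tph1, Gngt1 and Gnat2 reached 1 FPKM only with vehicle, so the filter fixed the direction of these rows. The CORT values of Rora and Rorb were above their vehicle values. The part of adjoining tissue in either was not tested.

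Genes of the core loop, on which these factors feed back, were present for 14 of 18 listed, with 18 rows. Of these rows, 2 were at least 1.5-fold higher with CORT and 1 was that much lower, against 4.00% and 4.45% of all rows. Their median log2 ratio was 0.02. The row past the limit at a level above 10 FPKM was that of Per1, a repressor with a known glucocorticoid response element, whose FPKM was 10.2 (vehicle) and 19.7 (CORT). The other 2 were minor rows at low level, 1 of Csnk1e, which went from 1.504 to 4.36 FPKM while its main row stayed at 22.9 FPKM in both groups, and 1 of Nr1d1, which was at 1.09 and 0.597 FPKM while its main row was at 23.5 and 23.8 FPKM. Per2 had a log2 ratio of 0.37. The remaining rows of Arntl, Btrc, Clock, Cry1, Cry2, Csnk1d, Csnk1e, Npas2, Nr1d1, Nr1d2 and Per3 had log2 ratios between -0.08 and 0.19. Arntl, activated by the ROR receptors and repressed through Nr1d1, had values of 11.6 and 11.7 FPKM. Per3 and Nr1d2, like several members targets of CLOCK and BMAL1, had log2 ratios of -0.05 each.

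Of the 12 genes listed as clock-controlled or as targets of the PAR bZIP factors, 10 were present, with 16 rows. Of these, 5 were at least 1.5-fold higher with CORT and 1 was that much lower, against 4.00% and 4.45% of all rows. The log2 ratio was above 0 for 9 of the 16 rows and below 0 for 7. Pdxk, the pyridoxal kinase that PAR bZIP factors are known to control, had values of 12.3 FPKM (vehicle) and 15.2 FPKM (CORT), a log2 ratio of 0.31. Both rows of Rbm3 went the other way, from 51.5 to 37.2 FPKM and from 46.5 to 34.3 FPKM, log2 ratios of -0.47 and -0.44. Of the 5 higher rows, 2 are of Tsc22d3, which is also a glucocorticoid receptor target, 2 are of Lonrf3, and 1 is a row of Ppara that had 0.0801 FPKM in the vehicle group and 1.12 in the CORT group, while the other Ppara row was the lower one, at 1.13 and 0.658 FPKM. Each Ppara row reached 1 FPKM only in the group in which it was higher, so the filter fixed its direction. Side by side, the median log2 ratio was 0.11 for the members, 0.02 for the core loop, 0.10 for clock-controlled genes, 0.71 for immediate early genes and 0.86 for the receptor targets. Some genes are in more than 1 of these lists, Per1 and Tsc22d3 among them, and the differences between lists were not tested. All lists were chosen with earlier results of these data known. The receptor targets include genes that the study reports as regulated by CORT, so their median is no independent yardstick.

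**Figure D4:**
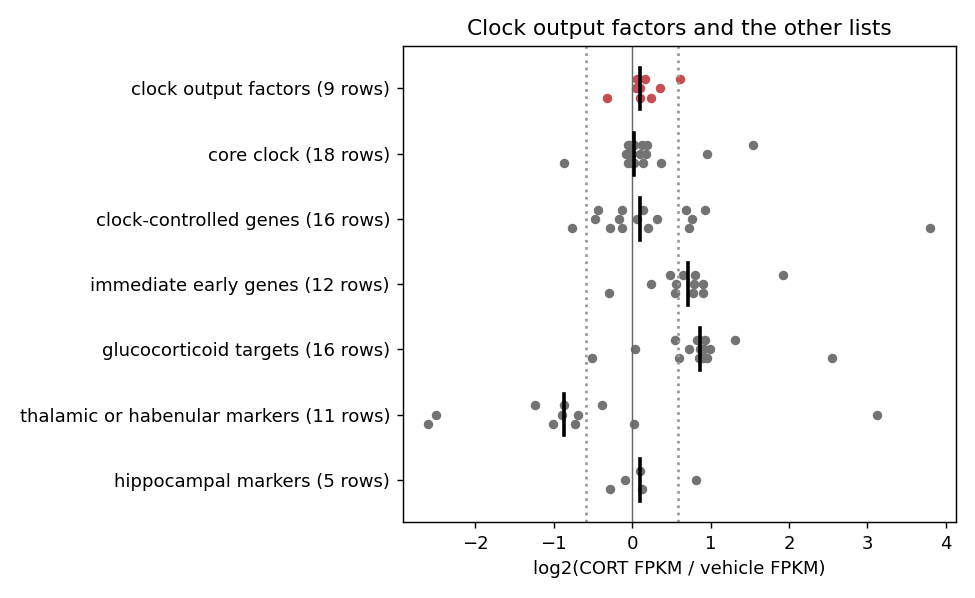
log2 ratio of CORT over vehicle FPKM (x axis) for the rows with at least 1 FPKM in a group in each list, 1 point a row, with a black bar for the median and dotted lines at 1.5-fold. The 9 rows of clock output factors lie between -0.32 and 0.61, as do most core clock rows, whereas immediate early genes and glucocorticoid targets centre on 0.71 and 0.86.

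Genes next to the members on the chromosome were read beside them. Among the nearest symbols in the table on both sides of each member, 18 in all, 1 was at least 1.5-fold higher and 1 that much lower. The shares of all rows were 4.00% and 4.45%, so these counts do not set the neighbours apart. The 2 neighbours were Tob2, 20932 bases from Tef, at 7.14 and 11.2 FPKM in the vehicle and CORT groups, and BC028528, 5406 bases from Ciart, at 4.51 and 2.88 FPKM. The closest pair is Dbp and Sphk2, whose loci are 126 bases apart, and Sphk2 had a log2 ratio of 0.17. Nfil3 lies between Ror2 and Auh, which both had a log2 ratio of -0.01.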

How the data were processed

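RNA of 8 whole hippocampi was sequenced after TruSeq stranded library preparation. Per the submitters' processing notes and the paper's methods, the authors used CASAVA 1.8.2, aligned the reads with TopHat2 2.0.10 to rn6 and estimated FPKM per Ensembl transcript with Cufflinks and Cuffdiff 2.2.0, with geometric scaling between libraries, corrections for multiply mapped reads, sequence bias and effective length, and a filter on few alignments. The deposited table gives 1 FPKM value per group. Its fold changes, test statistics, p-values and q-values are the authors' own comparison and were not used. FPKM per group carries no read depth and no spread between rats, so limma, planned for values per rat, was not run.

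Here the log2 ratio of CORT over vehicle FPKM was computed without a pseudocount. Rows with at least 1 FPKM in a group entered counts at 1.5-fold and medians. Each member row was set beside the 500 rows nearest in rank of mean FPKM. The functions were tested on simulated data. All 9 members were to be named, with every row, and of other genes those of the core clock list, at most the 2 largest ratios of any other list and the nearest neighbours. An item of the core clock list is not reported here by name. Neurod6, Wfs1, Gfap, Pdxk, Lonrf3, Rbm3, Arc, Fosb, Gnat2, Gpr151 and Synpo2 were named after their values were seen. The members and lists were chosen with earlier results of these data known. The motifs were chosen with the lists, and their letters were set once the promoters were at hand. Python 3.11.15, numpy 2.4.6, pandas 2.3.3 and matplotlib 3.10.9 were used.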

Additional observations from a re-analysis of the deposited data

How the results depend on the processing

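The 0 member rows lower by the limit stayed at 0 under every alternative run. The number of member rows higher with CORT by at least the limit was 1. It was 2 with the limit at 25% higher (Nfil3 and Hlf) and 2 with no filter on low values, which adds Rora, whereas it was 0 at 2-fold and 0 with a pseudocount of 1 FPKM, under which the log2 ratio of Nfil3 was 0.53. Centred on the median of all rows, Nfil3 stood at 0.59, and the limit is 0.58. Nfil3 is thus a borderline case at this limit. The median log2 ratio of the members lay between 0.10 and 0.16 under the alternatives run. The log2 ratio of 1 of 10 rows, Rora, moved by over 0.1 with a pseudocount of 1 FPKM, to 0.30, and none did with 0.1 FPKM, by centring or by rescaling without 130 structural RNA rows. With rows summed, Dbp went from 0.04 for its higher row to -0.06. In windows of 200 and 1000 rows, chosen after seeing the data, 1.5% and 3.4% of rows of like level differed as much as Nfil3, and 1 member row lay outside the middle 95% in each. Leaving out each rat in turn was not run, since only group values were used. No paired analysis was possible because each group has a single value that names no rat. The depth of each library is not given in the sources used here, beyond an approximate total per lane in the study's methods.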

Other observations

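Bhlhe40 and Bhlhe41 are also expressed in microglia, and Hlf and Tef in many cell types of the brain. Rows of microglia markers with at least 1 FPKM were lower with CORT in 8 of 9 cases. Their summed level was 192 FPKM with vehicle and 160 FPKM with CORT. The exception, Tmem119, was at 5.72 FPKM (vehicle) and 11.2 FPKM (CORT), the only microglia row past 1.5-fold in either direction. Oligodendrocyte rows were lower in 10 of 11 cases, with 7227 and 5930 FPKM, and none was past 1.5-fold. Astrocyte rows were lower in 10 of 14 cases, with 1728 and 1223 FPKM. The astrocyte sum rests on Gfap, at 970 and 517 FPKM, and without it, an alternative chosen after seeing the data, the sum was 758 and 707 FPKM. The median log2 ratio of the astrocyte rows was -0.13. Of the 14, 2 were at least 1.5-fold higher and 3 that much lower, against 4.00% and 4.45% of all rows. The 2 higher rows, 1 of Aldh1l1 and 1 of Aqp4, reached 1 FPKM only with CORT. The part of these cell types in the values of the members was not tested. Markers of neocortical layers, in which Rorb marks a layer of neurons, had 2 of 4 rows above and 2 below 0, with a median log2 ratio of 0.02. Markers of meninges were at least 1.5-fold lower in 4 of 6 rows, and those of the choroid plexus in none of 6, against 4.45% of all rows.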
